A study of Mus musculus with 24 samples.

Results

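Sox10, Foxd3, Erbb3, Fabp7, S100b and Ednrb, which mark the glia of the neural crest, were followed in the jaws of mouse embryos. These 6 genes were chosen by name and found by gene symbol in the array annotation. They and the marker lists used below were chosen with earlier results of these data known, so their counts are descriptions. All 6 of these genes had a probe set, out of 18193 genes on the array with a probe set of a single symbol, and all 6 passed the filter on low signals that 13942 genes passed. The 6 genes had 12 probe sets together, and each gene is described by the one with the highest mean over all arrays unless another is named.

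Neural crest cells leave the dorsal neural tube and form much of the facial skeleton, and also the Schwann cells and satellite glia that accompany cranial nerves. Sox10 is a SoxE transcription factor that keeps crest cells multipotent and is required for peripheral glia. Foxd3 is a forkhead factor of early crest and glial precursors, and Erbb3 is the receptor through which Schwann cell precursors read axonal neuregulin. Fabp7 is a fatty acid binding protein of immature glia, S100b is a calcium binding protein of glia that is also made by chondrocytes, and Ednrb is the endothelin receptor of migrating enteric and pigment cell precursors.

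The tissue was taken at embryonic day 14.5 from Alk5 mutants and their control littermates, on a C57B6 background, with 3 arrays for each of 8 groups of genotype, jaw and end. The groups are mutant and control distal mandible, proximal mandible, distal maxilla and proximal maxilla, and the labels name each compartment as bone. Alk5 is the type I TGF-beta receptor, and the cross was Wnt1cre;Alk5fl/+ with Alk5fl/fl. The Wnt1-Cre driver recombines in the neural crest lineage, which includes the glia that these genes mark, and not in surface epithelium or endothelium. By this cross every embryo, controls included, carried at least a single floxed allele, and the labels do not say whether controls carried the Cre. Mutants were picked by cleft palate and a calvarial defect. Whether replicate arrays stem from different embryos is not stated, so the p-values cover array-to-array spread, which may be technical.

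Signals are RMA values on the log2 scale. Array medians lay between 7.03 and 7.12, and the 40th percentile of an array, used as the filter level, lay between 6.33 and 6.47. Mutant maxilla arrays with number 3 stood apart. Across genes, the distal one had a mean r of 0.976 with arrays of the mutant distal mandible and 0.973 with its own group. The proximal one had 0.981 with arrays of the mutant proximal mandible and 0.969 with its own group. Results that change without these arrays are given both ways. In bulk tissue, fewer cells of a type and less RNA per cell cannot be told apart. Tgfbr1, the gene of Alk5, did not have lower signals in the arrays labelled mutant. Over the 4 regions its 3 probe sets were higher there by 0.56 ± 0.09, 0.55 ± 0.11 and 0.26 ± 0.04 (log2 change ± SE, limma over all probe sets, adjusted p = 0.000189, 0.000732 and 0.000215). The brightest lay between 12.21 and 12.57 in the arrays labelled mutant and between 11.92 and 12.36 in those labelled control. Where these probes lie relative to the floxed part is not given in the sources used here, so the genotype labels were not checked by this gene, and mutant and control below mean the arrays so labelled.

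Upstream sequences were available from RefSeq (GRCm38.p6) for 4 of the 6 genes. Those of S100b, Ednrb and Fabp7 are shown because S100b had the largest genotype difference and Fabp7 the widest range between regions. That of Ednrb is shown because its genotype difference was called as differing between the jaws. Each is the 250 bases before the annotated start, read 5′ to 3′ on the gene's strand. S100b lies on the plus strand at chr10:76253586-76253835, Ednrb on the minus strand at chr14:103843702-103843951, and Fabp7 on the plus strand at chr10:57784673-57784922. Capitals mark CAGAC, a core that SMAD proteins bind downstream of TGF-beta receptors, or its reverse complement.
S100b: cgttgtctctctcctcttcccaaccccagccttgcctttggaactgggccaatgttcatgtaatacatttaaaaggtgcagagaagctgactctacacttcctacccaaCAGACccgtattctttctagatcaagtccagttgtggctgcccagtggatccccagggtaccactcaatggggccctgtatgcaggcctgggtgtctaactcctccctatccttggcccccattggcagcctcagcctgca
Ednrb: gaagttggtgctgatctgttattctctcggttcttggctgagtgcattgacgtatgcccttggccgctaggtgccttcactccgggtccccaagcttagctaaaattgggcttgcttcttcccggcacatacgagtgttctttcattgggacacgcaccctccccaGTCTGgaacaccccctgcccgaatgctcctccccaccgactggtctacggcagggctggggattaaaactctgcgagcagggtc
Fabp7: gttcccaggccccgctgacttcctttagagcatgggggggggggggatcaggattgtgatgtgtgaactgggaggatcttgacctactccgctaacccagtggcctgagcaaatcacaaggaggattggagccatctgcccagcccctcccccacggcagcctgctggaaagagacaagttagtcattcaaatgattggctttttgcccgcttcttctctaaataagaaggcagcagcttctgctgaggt
S100b held CAGAC at 141 to 137 bases before the start and Ednrb held it on the opposite strand at 84 to 80 bases before the start. Neither Fabp7 nor Foxd3 held it in this window. On both strands, 42.2% of the 32851 upstream sequences in the table held these letters. ACAAAG and ACAATG, which SOX proteins bind, were in none of the 4 sequences, and 25.2% of all upstream sequences held at least 1 of the pair. These motifs do not overlap each other, and a match is a description of the letters only.

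**Figure D1:**
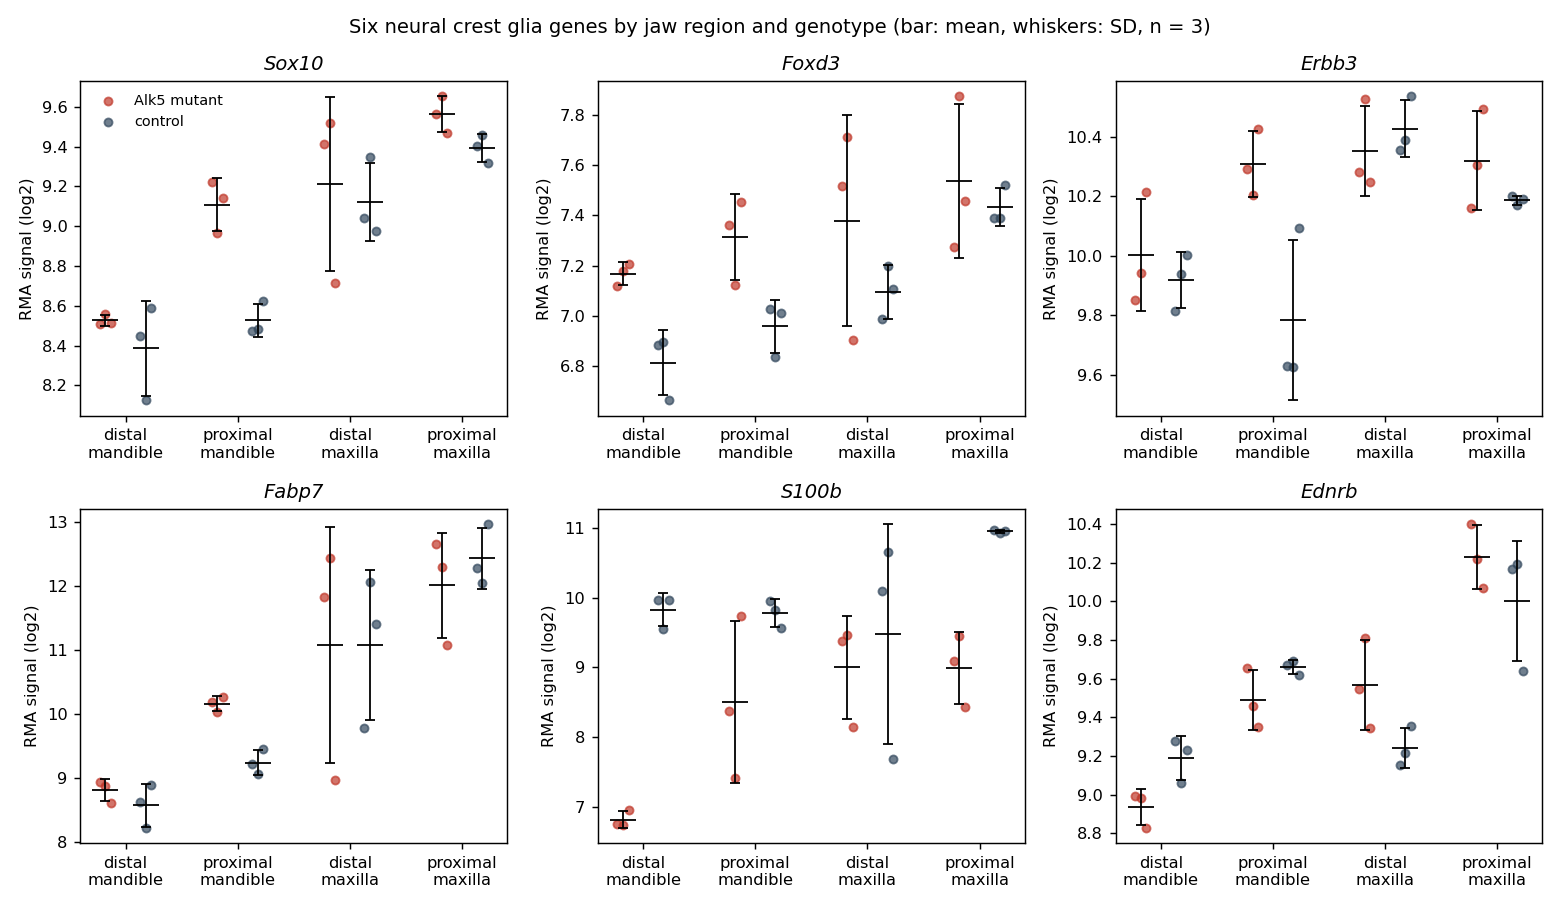
RMA signal on the log2 axis for the 6 genes, with mutant arrays in red and control arrays in dark blue in each of the 4 regions. Points are arrays, horizontal bars are means and whiskers are SD with n = 3, and each panel has its own axis range. S100b lay lower in the mutant distal mandible (6.74 to 6.96) than in the control distal mandible (9.55 to 9.96), while Sox10, Erbb3 and Fabp7 lay higher in the mutant than in the control proximal mandible.

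S100b was the gene that differed most between the genotypes. In the distal mandible its signals were 6.76, 6.74 and 6.96 in the mutants and 9.96, 9.55 and 9.96 in the controls. The groups lay far apart, and the mutant arrays were just above the filter level. S100b fell there by 3.00 ± 0.57 (log2 change ± SE, n = 3 per genotype, 8.02-fold, limma adjusted p = 0.00167), and its call was kept whichever single array was left out (adjusted p from 0.00542 to 0.01). In the proximal maxilla the signals were 9.09, 9.44 and 8.43 in the mutants and 10.97, 10.92 and 10.95 in the controls. The control arrays were almost level with each other and all above the mutants. S100b fell there by 1.96 ± 0.57 (3.89-fold, limma adjusted p = 0.0351). This call ended without any one of the 3 control arrays, mutant array 1 or mutant array 3 (adjusted p from 0.0609 to 0.157), and without both mutant maxilla arrays with number 3 the change was -1.68 (0.121).

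The other regions were more mixed for S100b. Proximal mandible arrays had 8.38, 7.42 and 9.73 in the mutants and 9.95, 9.83 and 9.57 in the controls, and mutant array 3 lay within the control range. The change of -1.27 ± 0.57 did not pass (limma adjusted p = 0.134), and without mutant array 3 it was -1.88 (0.027). The distal maxilla had 9.39, 9.47 and 8.15 in the mutants and 10.10, 10.65 and 7.69 in the controls. Here control array 3 was the lowest of all 6 arrays, and the change of -0.48 ± 0.57 did not pass (limma adjusted p = 0.653). Averaged over the 4 regions, S100b fell by 1.68 ± 0.29 (12 arrays per genotype, limma adjusted p = 0.000134), and its other probe set fell by 1.23 ± 0.21 (0.000268 over all probe sets). The genotype difference of S100b was not shown to differ between the jaws (-0.92 ± 0.57, mandible minus maxilla, limma adjusted p = 0.389) or between the ends (-0.12 ± 0.57, distal minus proximal, 0.992).

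Markers of chondrocytes, a further cell type that makes S100b, moved with it. All 9 chondrocyte markers were measured, and 8 fell and 0 rose in the mean of the 4 regions (limma). Of all genes, 15.3% were lower there and 25.2% higher. The markers had a median log2 change of -1.67 against 0.022 over all genes. They included the matrilins Matn3 (-3.28 ± 0.32, limma adjusted p = 4.26e-07) and Matn1 (-3.05 ± 0.51, 0.00011), the collagen chain Col11a2 (-2.45 ± 0.28, 2.21e-06) and the proteoglycan Acan (-2.23 ± 0.31, 1.57e-05). The mean signal of the 9 markers lay between 8.42 and 9.16 in the mutant distal mandible and between 10.71 and 10.93 in its control. In the control distal maxilla it was 9.45 in array 3, which had the low S100b, and 11.17 and 11.51 in the other two arrays. In the mutant proximal mandible it was 10.53 in array 3, which had the high S100b, and 9.56 and 9.35 in the others. The mutant proximal maxilla array 3, at 7.86 for the markers and 8.43 for S100b, had the lowest marker level of the series without the lowest S100b. Over the 24 arrays S100b and the marker mean had r = 0.884, which describes arrays that share regions and genotypes. The part of these cells in the fall of S100b was not tested.

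**Figure D2:**
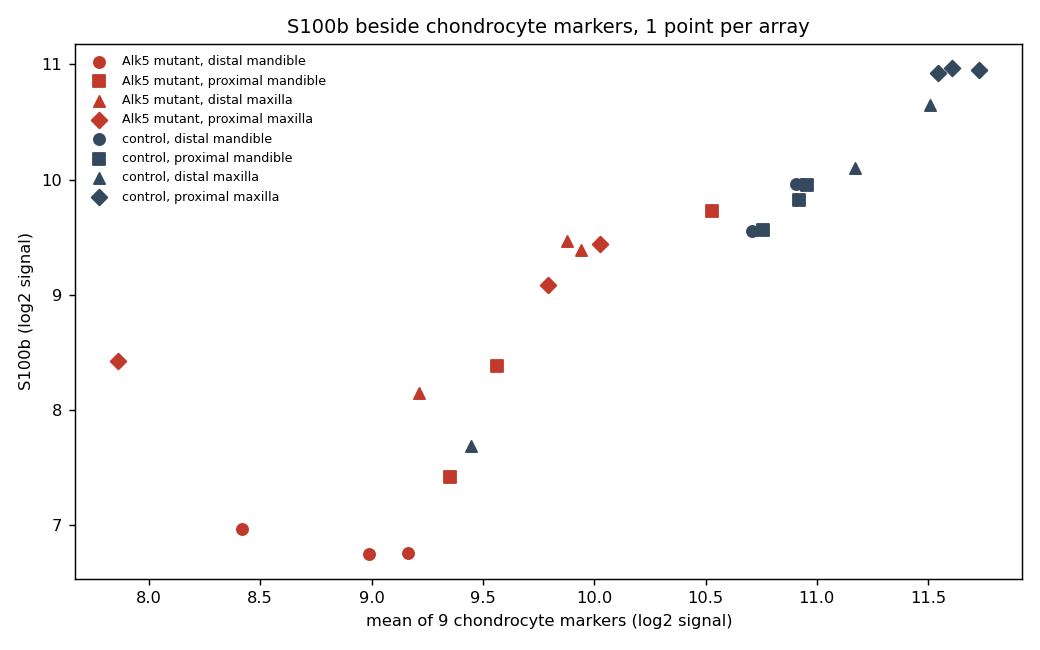
S100b (log2 signal, vertical axis) against the mean log2 signal of 9 chondrocyte markers (horizontal axis) in each of the 24 arrays, red for Alk5 mutants and dark blue for controls, with a symbol for each region. The mutant distal mandible arrays sit at the lower left (S100b 6.74 to 6.96) and the control proximal maxilla arrays at the upper right (10.92 to 10.97).

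Sox10, Foxd3 and Erbb3 did not fall with S100b. Over the mean of the 4 regions, 3 of the 6 genes rose, 1 fell and 2 did not pass, and 40.6% of all genes passed in that comparison (25.2% higher and 15.3% lower). Sox10 rose by 0.25 ± 0.08 (12 arrays per genotype, limma adjusted p = 0.0166), Foxd3 by 0.27 ± 0.08 (0.0122) and Erbb3 by 0.17 ± 0.06 (0.033). After quantile normalization again the Erbb3 change was 0.14 and did not pass (0.0721). The median log2 change of the 6 genes was 0.175, and that of all genes was 0.022. These comparisons took arrays of the same replicate number as independent. With the number as a random block within genotype, limma gave adjusted p = 0.102 for Sox10, 0.0892 for Foxd3, 0.118 for Erbb3 and 0.00494 for S100b. With the regions of each number averaged first it gave 0.0578, 0.0434, 0.0395 and 0.00578 in the same order.

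The rise of Sox10 was clearest in the proximal mandible. Its signals there were 9.22, 8.97 and 9.14 in the mutants and 8.48, 8.49 and 8.62 in the controls, so the groups did not overlap. The change was 0.58 ± 0.16 (n = 3 per genotype, 1.5-fold, limma adjusted p = 0.0117), and the call was kept without any single array (adjusted p from 0.0165 to 0.0472). In the proximal maxilla the mutants had 9.57, 9.65 and 9.47 and the controls 9.41, 9.46 and 9.32. These groups lay apart by little, and the change of 0.17 ± 0.16 did not pass (limma adjusted p = 0.533). The changes in the distal mandible (0.14 ± 0.16, 0.607) and the distal maxilla (0.09 ± 0.16, 0.761) did not pass either. The distal maxilla held mutant array 3 at 8.71 beside 9.41 and 9.52, and the controls at 9.04, 9.35 and 8.98.

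Probe sets of Sox10 did not give the same size of difference. In the proximal mandible the other two probe sets changed by 0.20 ± 0.11 and 0.16 ± 0.14 (limma over all probe sets, adjusted p = 0.353 and 0.589). With the mean of the 3 probe sets, Sox10 changed by 0.32 in that region (adjusted p = 0.0517) and by 0.12 over the 4 regions (0.0852). One of these probe sets was above the filter level in 13 of 24 arrays, and the main one in all 24.

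Erbb3 was also higher in the mutant proximal mandible. There it had 10.29, 10.20 and 10.43 in the mutants and 9.63, 9.63 and 10.09 in the controls. All mutant arrays lay above the highest control, and Erbb3 rose by 0.52 ± 0.12 (1.44-fold, limma adjusted p = 0.00402), kept without any single array (0.000474 to 0.0304). Elsewhere the changes were 0.08 ± 0.12 in the distal mandible (limma adjusted p = 0.705), -0.08 ± 0.12 in the distal maxilla (0.739) and 0.13 ± 0.12 in the proximal maxilla (0.52). The difference of its genotype effect between the ends was -0.33 ± 0.12 (distal minus proximal, limma adjusted p = 0.404, unadjusted p = 0.0141). Over the mean of the regions its call ended without any one of 8 of the 24 arrays (adjusted p up to 0.0654). The second probe set of Erbb3 was above the filter level in 9 of 24 arrays and changed by 0.18 ± 0.11 in the proximal mandible (limma over all probe sets, adjusted p = 0.381). Over the mean of the 4 regions this probe set changed by 0.05 ± 0.05 (0.594).

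Erbb3 is also made by epithelial cells. Of 8 epithelium markers, 3 rose and 0 fell in the proximal mandible (limma, 19.9% of all genes called), with a median log2 change of 0.80. In the proximal maxilla, where Erbb3 did not pass, 3 of the 8 also rose and 0 fell (10.5% of all genes called), with a median of -0.22. In the proximal mandible their mean signal lay between 10.38 and 10.87 in the mutants and between 9.51 and 10.05 in the controls. Esrp1, a splicing regulator of epithelia, changed by 1.06 ± 0.17 in the proximal mandible (limma adjusted p = 0.000167). Trp63, a transcription factor of basal epithelium, changed there by 0.98 ± 0.32 (0.0368). In the proximal maxilla Esrp1 changed by -0.16 ± 0.17 (limma adjusted p = 0.58) and Trp63 by 1.38 ± 0.32 (0.00985). The part of epithelium in the Erbb3 values was not tested.

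Foxd3 had the lowest signals of the 6 genes on its own probe set, and its differences were small in each region. In the distal mandible it had 7.12, 7.18 and 7.21 in the mutants and 6.88, 6.90 and 6.66 in the controls. Its proximal mandible signals were 7.36, 7.12 and 7.46 in the mutants and 7.03, 6.84 and 7.01 in the controls. The mutants lay above the controls in both ends of the mandible, by 0.35 ± 0.17 and 0.35 ± 0.17, and neither difference passed (limma adjusted p = 0.158 distal and 0.147 proximal). In the distal maxilla Foxd3 had 7.52, 7.71 and 6.91 in the mutants and 6.99, 7.20 and 7.10 in the controls, a change of 0.28 ± 0.17 (0.328). Mutant array 3 was the low one, and without it and its proximal counterpart the change was 0.52 (limma adjusted p = 0.0371). The proximal maxilla gave 7.28, 7.87 and 7.46 in the mutants and 7.39, 7.39 and 7.52 in the controls (0.10 ± 0.17, 0.746), with overlapping groups.

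Counted by region, 1 of the 6 genes was called in the distal mandible, where 16% of all genes were called, and 2 in the proximal mandible, where 19.9% were. None was called in the distal maxilla, where 2.96% of all genes were and where only Ednrb had an unadjusted limma p under 0.05. In the proximal maxilla 1 was called, against 10.5% of all genes.

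**Figure D3:**
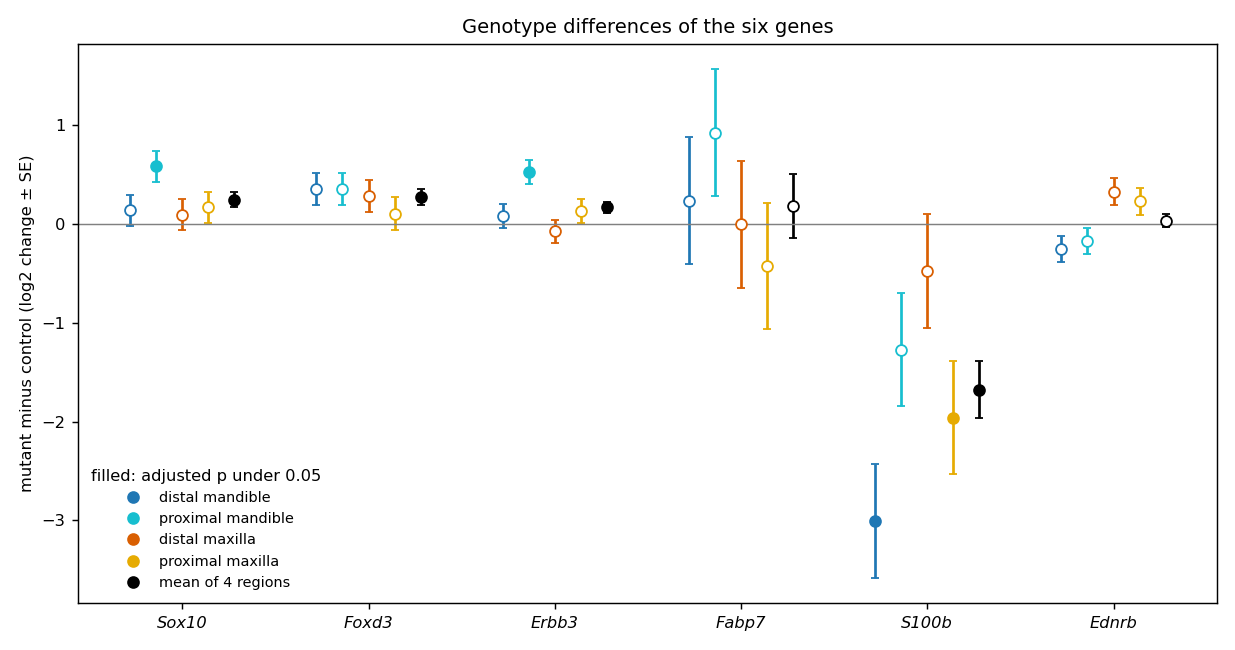
Mutant minus control difference (log2 change, whiskers are SE) of the 6 genes in each region and in the mean of the 4 regions, with filled points for limma adjusted p under 0.05. S100b lies below 0 in every region, from -0.48 to -3.00, and the filled points above 0 are Sox10 and Erbb3 in the proximal mandible and Sox10, Foxd3 and Erbb3 in the mean.

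Fabp7 varied widely between arrays of the maxilla. Its proximal mandible signals were 10.19, 10.03 and 10.27 in the mutants and 9.21, 9.05 and 9.45 in the controls. The groups lay apart there, and the difference of 0.92 ± 0.64 did not pass in the fit over all arrays (limma adjusted p = 0.354), while with the arrays of this region alone it did (0.00355). The distal maxilla, which enters the pooled error, had 11.82, 12.44 and 8.97 in the mutants and 9.78, 12.06 and 11.40 in the controls. Here the low mutant was array 3 and the low control was array 1. In the distal mandible the mutants had 8.94, 8.87 and 8.61 and the controls 8.62, 8.21 and 8.88 (0.24 ± 0.64, limma adjusted p = 0.863). In the proximal maxilla the mutants had 12.66, 12.30 and 11.08 and the controls 12.29, 12.04 and 12.98 (-0.42 ± 0.64, 0.73). Over the 4 regions the change was 0.18 ± 0.32 (0.687), and without both mutant maxilla arrays with number 3 it was 0.56 (0.0338).

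On its main probe set, the genotype difference of Ednrb had opposite signs in the mandible and the maxilla. In the distal mandible it had 8.99, 8.98 and 8.83 in the mutants and 9.28, 9.06 and 9.23 in the controls (-0.26 ± 0.13, limma adjusted p = 0.216), and the mutants lay below the controls. The proximal mandible had 9.65, 9.46 and 9.35 in the mutants and 9.67, 9.69 and 9.62 in the controls (-0.17 ± 0.13, 0.42), with an overlap at mutant array 1. In the distal maxilla it had 9.55, 9.81 and 9.34 in the mutants and 9.16, 9.21 and 9.36 in the controls (0.33 ± 0.13, limma adjusted p = 0.176). The proximal maxilla had 10.40, 10.22 and 10.07 in the mutants and 10.17, 10.19 and 9.64 in the controls (0.23 ± 0.13, 0.295). No region passed alone, but the genotype difference itself differed between the jaws by -0.49 ± 0.13 (mandible minus maxilla, 24 arrays, limma adjusted p = 0.0331). In that comparison 1 of the 6 genes was called, and 6.76% of all genes were. The call ended without any one of 9 of the 24 arrays (adjusted p up to 0.0628). The other 2 probe sets of Ednrb gave -0.75 ± 0.21 and -0.57 ± 0.19 (limma over all probe sets, adjusted p = 0.0612 and 0.112, and 0.0533 for the main one). The probe set at -0.57 was not negative in the proximal mandible (0.03 ± 0.19, limma over all probe sets, adjusted p = 0.955).

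Ednrb is carried by melanocyte precursors and endothelial cells as well as glia. Of 6 measured melanocyte markers, 0 passed the limma test in any region or in the mean of the 4 regions. Of all genes, 2.96% passed in the distal maxilla, the lowest share, and 40.6% in the mean. In the mean the median log2 change of these markers was -0.031. By region their median was -0.067 in the distal and 0.225 in the proximal mandible, and -0.71 in the distal and 0.542 in the proximal maxilla. Between the jaws' genotype effects 0 passed, with a median of 0.285 (mandible minus maxilla). In the mean of the 4 regions single markers changed little. Pmel, a protein of pigment granules, changed by 0.12 (adjusted p = 0.706) and the receptor Kit by -0.14 (0.121). Of 6 endothelium markers, 2 had a lower genotype effect in the mandible than in the maxilla and 0 a higher one (limma, 6.76% of all genes called). Their median difference was -0.32. Their mean signal lay between 9.38 and 9.68 in the mutant mandible and between 9.61 and 9.84 in the control mandible. In the maxilla it lay between 9.33 and 9.93 in mutants and between 9.15 and 9.99 in controls. The part of endothelium in the Ednrb values was not tested.

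Ligands and partners of these receptors were also measured. Edn3, the endothelin that activates Ednrb in crest cells, rose by 0.59 ± 0.07 over the 4 regions (12 arrays per genotype, limma adjusted p = 2.87e-06), and Edn1, the ligand that patterns the lower jaw, by 0.53 ± 0.08 (5.58e-05). Of the 5 measured endothelin genes other than Ednrb, these 2 rose and 0 fell, beside 25.2% of all genes higher and 15.3% lower. Edn3 passed in the proximal mandible (0.70 ± 0.14, limma adjusted p = 0.00154), the distal maxilla (0.61 ± 0.14, 0.0266) and the proximal maxilla (0.84 ± 0.14, 0.00112), and was at 0.23 ± 0.14 in the distal mandible (0.303). Erbb2, the kinase partner that Erbb3 needs for signalling, rose by 0.25 ± 0.05 over the 4 regions (limma adjusted p = 0.000882). It was the 1 that passed among 4 measured neuregulin and ErbB genes other than Erbb3, beside 40.6% of all genes. Nrg1, the axonal ligand of Erbb3, changed by 0.10 ± 0.09 (0.433), at group means between 5.88 and 7.09 that straddle the filter level.

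Of 11 measured transcription factors of the neural crest other than Sox10 and Foxd3, 7 rose and 0 fell in the mean of the 4 regions (limma, 25.2% of all genes higher), with a median log2 change of 0.44. With the random replicate block 5 rose and 0 fell (16.6% of all genes higher), and the 4 that rose among those named here passed with it too. Snai2, a repressor of epithelial genes in migrating crest, rose by 0.48 ± 0.04 (limma adjusted p = 3.26e-08). The AP-2 factors Tfap2a and Tfap2b rose by 0.82 ± 0.10 (5.02e-06) and 0.80 ± 0.13 (9.64e-05), and the homeobox gene Msx2 by 0.81 ± 0.12 (2.07e-05). Sox9, the SoxE relative of Sox10 that drives cartilage, changed by 0.16 ± 0.23 (0.622). Several of these factors are made by facial mesenchyme and epithelium as well as by glia. The list was chosen with earlier results of these data known, so its counts beside all genes are a description only.

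Markers of Schwann cells other than the 6 genes were called in both directions. Of 15 measured, 2 rose and 2 fell in the mean of the 4 regions (limma), beside 25.2% of all genes higher and 15.3% lower. Their median log2 change was 0.079. With the random replicate block 1 rose and 2 fell, beside 16.6% of all genes higher and 10.6% lower. Cdh19, a cadherin of Schwann cell precursors, rose by 0.41 ± 0.10 (limma adjusted p = 0.00223) and Gap43, a growth cone protein of axons and immature Schwann cells, by 0.24 ± 0.08 (0.0207, and 0.0969 with the random block). Pmp22, a myelin protein that mesenchyme also makes, fell by 0.53 ± 0.08 (2.21e-05), and Dhh, the hedgehog ligand of Schwann cells, by 0.24 ± 0.07 (0.00639). Dhh and Cdh19 had group means close to or below the filter level in several regions. In the proximal mandible 2 of the 15 rose and 1 fell, beside 19.9% of all genes called. Their median there was 0.043 against 0.039 over all genes. Cdh19 changed there by 0.64 ± 0.19 (limma adjusted p = 0.0222) and Gap43 by 0.79 ± 0.16 (0.00153). Of 12 neuron markers, a list that also holds Gap43, 2 were higher there and 0 lower, beside 19.9% of all genes called, and their median was 0.47. The mean signal of the neuron markers lay between 8.11 and 8.20 in the mutant proximal mandible and between 7.39 and 7.93 in its control. The part of nerve tissue in the Sox10 values was not tested.

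In the control embryos the glial genes were lower in the mandible than in the maxilla. Of the 6, 4 were lower and 0 higher (limma, mean of both ends, 6 arrays per jaw), and 34.7% of all genes passed in this comparison (18.1% lower and 16.7% higher). Fabp7 lay between 8.21 and 9.45 in the mandible and between 9.78 and 12.98 in the maxilla. It was 2.86 ± 0.45 lower in the mandible on the log2 scale (7.24-fold, limma adjusted p = 6.35e-05). Sox10 lay between 8.12 and 8.62 in the mandible and between 8.98 and 9.46 in the maxilla (-0.80 ± 0.11, 1.5e-05). Its other probe sets gave -0.18 ± 0.08 and -0.12 ± 0.10 (limma over all probe sets, adjusted p = 0.133 and 0.459).

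The other crest genes followed with smaller differences between the control jaws. Erbb3 lay between 9.63 and 10.09 in the mandible and between 10.17 and 10.54 in the maxilla (-0.46 ± 0.09, limma adjusted p = 0.000305). Its second probe set gave -0.08 ± 0.08 (limma over all probe sets, adjusted p = 0.565). On their main probe sets, Fabp7, Sox10 and Erbb3 did not overlap between the jaws. How many of all genes lay apart between the jaws was not counted, here or in the mutants below. Of all genes 34.7% passed in this comparison. Foxd3 was lower in the mandible by 0.38 ± 0.12 (0.0157), with an overlap of the jaws. S100b (-0.41 ± 0.41, limma adjusted p = 0.478) and Ednrb (-0.20 ± 0.10, 0.12) did not pass, and S100b passed without control distal maxilla array 3 (-0.86, 0.0412) and Ednrb without control proximal maxilla array 3 (-0.29, 0.0118). In the mutants, Fabp7 had a mean of 9.48 in the mandible and 11.54 in the maxilla, and Sox10 a mean of 8.82 in the mandible and 9.39 in the maxilla. The jaws overlapped in all 6 genes in the mutants. Without both mutant maxilla arrays with number 3, Sox10 and Fabp7 no longer overlapped. Sox10 then lay between 8.51 and 9.22 in the mutant mandible and between 9.41 and 9.65 in the mutant maxilla, and Fabp7 between 8.61 and 10.27 in the mutant mandible and between 11.82 and 12.66 in the mutant maxilla. The jaw difference of these genes was not shown to depend on genotype except for Ednrb (limma adjusted p = 0.437 for Sox10, 0.528 for Fabp7, 0.191 for Erbb3 and 0.633 for Foxd3).

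Markers of nerve, nasal and epithelial tissue also differed between the control jaws. Of 12 neuron markers, 8 were lower in the mandible and 0 higher, with a median of -1.88, and of 7 olfactory epithelium markers 6 were lower and 0 higher. Stmn2, a microtubule regulator of neurons, was 2.85 ± 0.28 lower in the mandible on the log2 scale (limma adjusted p = 3.56e-07). Gng8, a G protein subunit of the olfactory system, was at -2.48 ± 0.33 (1.04e-05). The mean signal of the neuron markers lay between 7.39 and 8.38 in the control mandible and between 8.71 and 11.24 in the control maxilla. Of 15 other Schwann markers, 7 were lower in the mandible and 3 higher (18.1% of all genes lower and 16.7% higher). Of 8 markers of epithelium, which also makes Erbb3, 5 were lower and 1 higher, with a median of -1.15. Of 7 radial glia, astroglia and brain markers, 5 were lower and 1 higher, with a median of -0.64. Over the 24 arrays, the neuron mean had r = 0.882 with Fabp7 and r = 0.854 with Sox10. The olfactory mean had r = 0.908 with Fabp7, and these are descriptions across arrays that share regions. The mutant distal maxilla array 3, which had the low Fabp7 of 8.97, had neuron markers at 8.46 against 9.74 and 10.02 in the other two arrays of its group. The part of nerve, nasal, epithelial or brain tissue in these differences was not tested.

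**Figure D4:**
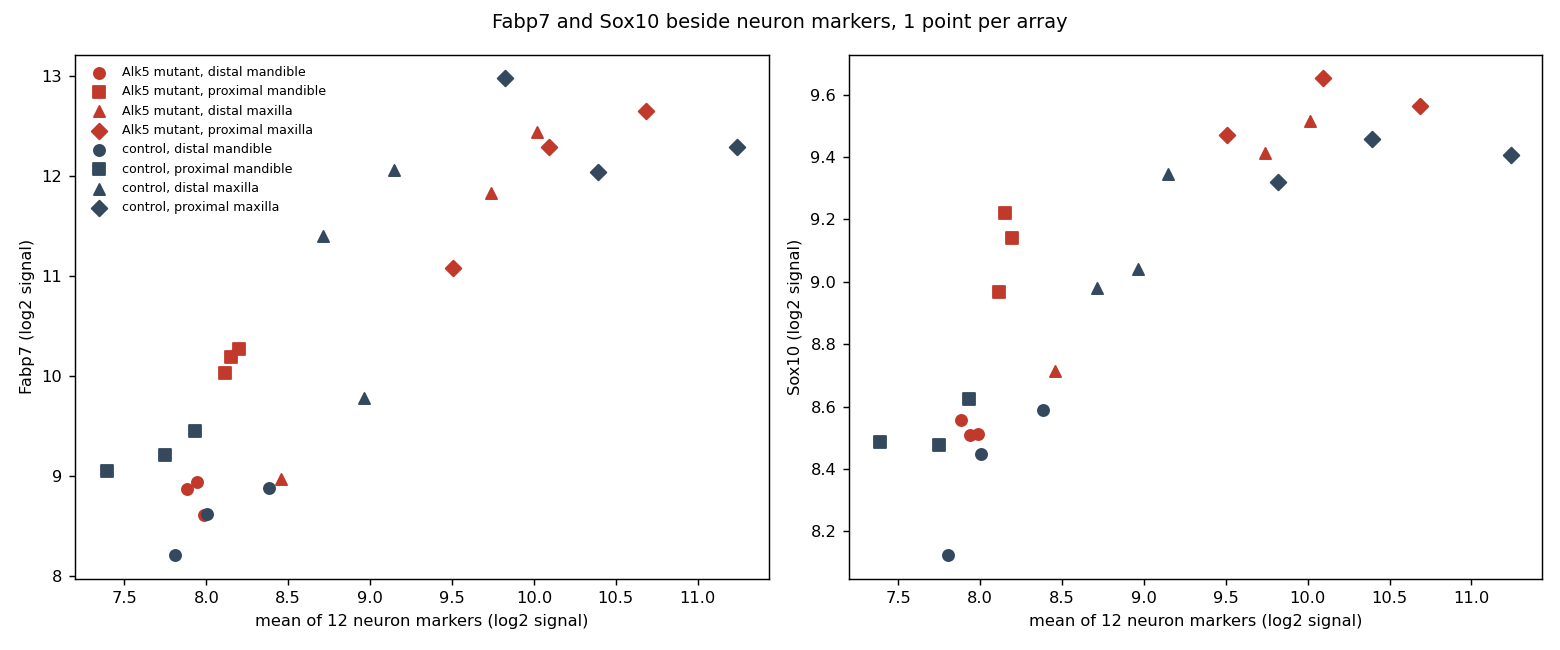
Fabp7 (left) and Sox10 (right), both as log2 signal, against the mean log2 signal of 12 neuron markers in each of the 24 arrays, red for Alk5 mutants and dark blue for controls, with a symbol for each region. Mandible arrays lie at the lower left and most maxilla arrays at the upper right, and the 3 mutant proximal mandible arrays (Sox10 8.97 to 9.22) lie above the other mandible arrays.

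Ednrb was the gene with a called difference between the ends of a control jaw. In the control maxilla it was lower distally by 0.76 ± 0.13 (n = 3 per end, 1.69-fold, limma adjusted p = 0.000862), and its call was kept without any single array. The other 2 probe sets of Ednrb gave -0.37 ± 0.21 and -0.47 ± 0.19 there (limma over all probe sets, adjusted p = 0.3625 and 0.1708). There 1 of the 6 genes was called and 10.9% of all genes were. In the control mandible Ednrb was lower distally by 0.47 ± 0.13 (limma adjusted p = 0.0461), 1 of 6 called beside 5.45% of all genes. That call ended whichever single array was left out (adjusted p from 0.0865 to 0.2). In the limma fit over all probe sets the main one had adjusted p = 0.0787 in the control mandible. The others gave -0.20 ± 0.21 (0.914) and -0.25 ± 0.19 (0.794). In the control maxilla the distal minus proximal differences were -1.35 ± 0.64 for Fabp7 (limma adjusted p = 0.2), -1.47 ± 0.57 for S100b (0.114), -0.34 ± 0.17 for Foxd3 (0.219), -0.27 ± 0.16 for Sox10 (0.302) and 0.24 ± 0.12 for Erbb3 (0.23). Without control distal maxilla array 2, S100b passed there (-2.05, 0.0256). The genotype effect differed between the ends in 0 of the 6 genes (limma, with 1 at an unadjusted p under 0.05), beside 0.115% of all genes.

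Ordered by group mean, Sox10 was highest in the mutant proximal maxilla (9.56 ± 0.09, SD, n = 3) and lowest in the control distal mandible (8.39 ± 0.24). The step between the mutant proximal mandible (9.11 ± 0.13) and the control proximal mandible (8.53 ± 0.08) was the wider of the 2 steps without overlap between neighbours. Foxd3 had the same highest and lowest groups (7.54 ± 0.31 and 6.81 ± 0.13), and all neighbouring groups overlapped. Erbb3 was highest in the control distal maxilla (10.43 ± 0.10) and lowest in the control proximal mandible (9.78 ± 0.27). Fabp7 ran from 12.44 ± 0.48 in the control proximal maxilla to 8.57 ± 0.34 in the control distal mandible. S100b ran from 10.95 ± 0.02 in the control proximal maxilla to 6.82 ± 0.12 in the mutant distal mandible, and these end groups lay apart from their neighbours. Ednrb ran from 10.23 ± 0.17 in the mutant proximal maxilla to 8.93 ± 0.09 in the mutant distal mandible.

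Across the 24 arrays, Sox10 was closer to the other crest genes than to S100b. Sox10 had r = 0.926 with Fabp7, 0.808 with Foxd3, 0.71 with Ednrb and 0.704 with Erbb3, and r = 0.313 with S100b. S100b had r = 0.094 with Foxd3, -0.027 with Erbb3, 0.416 with Fabp7 and 0.432 with Ednrb, and Erbb3 had 0.186 with Ednrb. Likeness was also ranked among other genes. This ranking left out the glial genes followed here, such as Fabp7, and so did not cover all genes tested. In it, the genes most like Sox10 were Tnik (r = 0.943), Lypd6 (0.909), Dcaf11 (0.906), Snn (0.906) and Cotl1 (0.905). Those most like Fabp7 were Cotl1 (r = 0.944), Tnik (0.942) and Mapk8ip2 (0.941), so 2 of the 3 were shared with Sox10. S100b was most like Epyc, a proteoglycan of growth cartilage (r = 0.949), Rlbp1 (0.943) and Loxl3 (0.928). Ednrb was most like Mmd2 (r = 0.886), the neurofilament gene Nefm (0.884) and Cyp1b1 (0.87). Foxd3 was most like Fbxw9 (r = 0.858), Rogdi (0.848) and Ldhb (0.846), and Erbb3 most like Apoc1 (r = 0.861), Dact2 (0.85) and Emx2os (0.848). These are descriptions over arrays of the same regions and genotypes.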

How the data were processed

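Arrays were single-colour, from 5 µg of total RNA each, per the labels. The authors deposited log2 signals made by RMA, per the submitters' processing notes. No RMA version is given, and the log base was read from the range of 3.29 to 14.86. Of 45101 probe sets, 34945 had a single symbol in the array annotation. Genes above the 40th percentile in at least 3 arrays were tested.

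In limma 3.58.1 (R 4.3.3), all 24 arrays entered 1 linear model of group means, with eBayes and a mean-variance trend. Adjusted p-values (Benjamini-Hochberg over all 13942 genes, two-sided) under 0.05 were called, in 10 comparisons. The fit was tested on simulated data. The members and lists were chosen with earlier results of these data known. Listed genes named are the 4 with the largest statistic in the mean of 4 regions, plus ligands, partners and relatives of the 6 genes. Deviations of arrays with the same replicate number correlated at 0.163, 0.129 and 0.361 in the mean of the 4 regions, and every value was over 0.1 too between the control jaws and in the control mandible, so these numbers were read as pairing arrays. Other comparisons were less even. Mutant against control values in single regions ran from -0.169 in the proximal maxilla to 0.368 in the distal maxilla. Between the control maxilla ends the lowest was 0.031. Tables used Python 3.11.15. Listed genes without a probe set here were not analysed.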

Additional observations from a re-analysis of the deposited data

Results flagged for a closer look

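The genotype difference of Ednrb differed between the jaws, between arrays as labelled. On its main probe set, mutant minus control was negative in both ends of the mandible and positive in both ends of the maxilla. Another of its probe sets was at 0.03 ± 0.19 in the proximal mandible. The test of that difference gave -0.49 ± 0.13 (log2, mandible minus maxilla, 24 arrays, limma adjusted p = 0.0331). With the replicate number as a block the adjusted p was 0.0134, and without both mutant maxilla arrays with number 3 it was 0.0136 at -0.59. The call ended after quantile normalization again (-0.44, 0.087) and without any one of 9 of the 24 arrays (up to 0.0628). In the fit over all probe sets none of its 3 probe sets passed (0.0533, 0.0612 and 0.112).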

How the results depend on the processing

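Precision is limited by having 3 arrays in each group. The number of the 6 genes called moved as follows. In the control mandible ends it was 0 after quantile normalization again, with no filter, without the variance trend and with the mean of probe sets, against 1, and 2 with only the arrays compared. In the control jaws it was 5 with array weights and 3 with the 60th percentile filter, against 4. In the distal mandible it was 2 with array weights and with only the arrays compared. In the distal maxilla it was 1 with array weights and without both mutant maxilla arrays with number 3, and without those arrays it was 0 in the proximal maxilla. In the proximal mandible it was 1 with the mean of probe sets and 3 with array weights and with only the arrays compared. Between the jaws' genotype effects it was 0 after quantile normalization again. In the mean of 4 regions it was 2 with the mean of probe sets and 1 with the random replicate block, 3 after quantile normalization again, with the 60th percentile filter and with regions averaged first, and 5 without both mutant maxilla arrays with number 3, against 4. The replicate block as a fixed term changed no count. Leaving out 1 array at a time gave 1 to 1 calls in the distal mandible, 2 to 3 in the proximal mandible, 0 to 1 in the distal maxilla, 0 to 1 in the proximal maxilla, 3 to 4 in the mean, 0 to 1 between the jaws' and 0 to 0 between the ends' genotype effects, 4 to 5 between the control jaws, 0 to 0 in the control mandible and 1 to 2 in the control maxilla. The 60th percentile filter removed Foxd3. The random block for listed genes and the jaw ranges without those arrays were chosen after seeing the data.

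Changes that had not passed turned sign in some settings. Fabp7 in the distal maxilla (-0.0043) was 0.88 with array weights and 1.05 without both mutant maxilla arrays with number 3, where it was 0.040 in the proximal maxilla. Sox10 in the distal maxilla was -0.0020 with the mean of probe sets, and S100b in the control mandible ends was -0.0074 with array weights. With 1 array left out, ranges crossed 0 for Fabp7 in the distal maxilla (-0.69 to 1.05) and proximal maxilla (-0.75 to 0.040), Sox10 (-0.060 to 0.34) and S100b (-1.37 to 0.11) in the distal maxilla, Erbb3 in the distal mandible (-0.022 to 0.16), Foxd3 in the proximal maxilla (-0.066 to 0.23), Ednrb in the mean (-0.013 to 0.060), S100b in the control mandible ends (-0.062 to 0.18) and S100b between the ends' genotype effects (-0.57 to 0.18). The cause was not tested.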
